A study of Mus musculus with 23 samples.

Results

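Tongue RNA of 3 mice that had flown in orbit was compared with tongue RNA of 3 mice kept in a copy of the flight habitat on the ground, over all 22626 probe sets of an Affymetrix mouse genome array. These 6 arrays are part of a set of 23, of which the others measured a back muscle, *longissimus dorsi*, and tongues of mice from an animal facility. They were chosen by their sample titles alone. Flown mice (BF) spent 30 days aboard the BION-M1 biosatellite, ground mice (BG) spent 30 days in the same habitat on the ground, and facility mice (FC; 2 tongue arrays) stayed in the animal facility for that time. All were male C57BL/N6 mice of 19 to 20 weeks, given no drug and carrying no engineered allele according to the sources used here. Tissue of flown mice was taken 12 to 14 h after landing, so flight and landing cannot be told apart. Values are log2 expression, and differences are log2 BF minus log2 BG, so that a difference of 1 is 2-fold.

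The tongue is a fast striated muscle wrapped in a stratified squamous epithelium. That epithelium is renewed throughout life by division of basal keratinocytes, whose daughters move outward, keratinise and are shed, and its filiform papillae carry keratins otherwise known from hair. Genes needed to divide a cell are transcribed late in the cell cycle, mainly by dividing cells, and mature muscle fibres do not divide. In a bulk tissue such as this, fewer cells of a type and less RNA per cell cannot be told apart.

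The tissue label was checked on marker lists before any comparison. The 26 genes of differentiated oral epithelium had a mean level of 10.3 to 10.6 on the 8 tongue arrays against 5.08 in *longissimus dorsi*, and the 20 hair-type keratin genes of papillae had 8.59 to 8.98 against 5.12. The 33 muscle fibre genes had 12 to 12.8 against 13.3. The samples therefore held epithelium as well as muscle. The 16 salivary gland genes, at 5.84 to 5.96, were at the level of the back muscle (5.86), and the 16 taste cell genes were at 5.47 to 5.66 against 5.22.

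Several tongue arrays stood apart in a few genes, which were chosen here after their values were seen. BG replicate 1 had *Krt1*, a keratin of cornifying epidermis, at 9.65, whereas the other tongue arrays had 6.01 to 7.16. It also had the hair protein gene *Krtap8-1* at 8.78 against 5.13 to 5.65. BF replicate 3 had the interferon-induced *Ifit1* at 9.05 and *Oas1a* at 9.40, whereas the other tongue arrays had at most 6.6 and 6.99. The muscle in the samples differed as well. *Actn3*, the alpha-actinin of fast fibres, was at 9.69 to 11.64 on BF replicates 1 and 2 and BG replicates 1 and 3, but at 6.53 to 6.88 on BF replicate 3, BG replicate 2 and both FC arrays. *Myl2*, a slow and cardiac myosin light chain, divided the same arrays, at 7.94 to 10.18 against 3.94 to 5.39. These muscle differences cut across the BF and BG groups, and their part in the results below was not tested.

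Between BF and BG tongues, 50 of 22626 probe sets (0.221%) were called, meaning an adjusted p under 0.05 in the moderated test of limma and a change of more than 2-fold. Of these, 14 (0.0619%) were higher and 36 (0.159%) lower in BF. They named 41 genes, 9 higher and 32 lower. Genes from a list for chromosome segregation and cell division, chosen with earlier results of these data known, made up 20 of the 32 lower genes. That list also held the ubiquitin ligase gene *Trim59*, which is counted among the 20. The 9 higher genes included the transcription factor gene *Nfic* and the glucocorticoid-induced *Fkbp5*. With no fold limit 187 probe sets (0.826%) passed the adjusted p, 80 higher and 107 lower. In the same limma fit 3492 of 22626 had an unadjusted p under 0.05 in either direction. List counts at an unadjusted p from this fit, given below, are to be read beside that share. In 41 of the 50 called probe sets no BF array overlapped a BG array. Over all 22626 probe sets, every BF array lay above every BG array in 2192 and below in 2001. The 50 were called for a large difference, which favours such separation.

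The size of this result rested on single arrays and on how the spread was estimated. The number of probe sets past the adjusted p fell to 14 or 16 when BF replicate 1 or BF replicate 3 was dropped, and to 10 or 31 when BG replicate 1 or BG replicate 2 was dropped. Dropping BF replicate 2 raised it to 1067, and dropping BG replicate 3 raised it to 480. With the replicate number as a block, which pairs BF and BG arrays though the labels name no shared litter or batch, 532 passed. All 50 called probe sets were among the 71 called with this block. The error in these tests was shared with the 15 back muscle arrays. For the single-gene probe sets called lower, the median SD within groups was 0.476 in tongue and 0.206 in *longissimus dorsi*, and 31 of 34 varied more in tongue. For those called higher these SDs were 0.274 and 0.292. When the 8 tongue arrays were fitted alone, the calls were 14 higher and 17 lower, and 17 of these 31 were among the 50. None of the 46 called probe sets that name a single gene reversed its direction under any alternative, and none passed the adjusted p under all of them.

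Genes of mitosis were the largest group among the lower genes when the error was shared with the back muscle arrays. Of 59 measured genes in a list of mitosis genes, with 1 probe set per gene, 21 were lower at the adjusted p and 0 higher (1 at an unadjusted p under 0.05), against 0.508% lower and 0.323% higher over all 12393 genes. The list was chosen with earlier results of these data known, so these counts are a description and not independent support. The median difference was -0.69 for the list and 0.01 for all genes. The values of 54 of the 59 were below 0. In 24 members every BF array lay below every BG array, against 9.8% of all genes, and in 1 member every BF array lay above (*Foxm1*, named after its values were seen), against 8.92%. The count of 21 was 2 with the 8 tongue arrays alone and 0 with the 6 BF and BG arrays alone, where 39 members were lower at an unadjusted p under 0.05 in limma. In those fits the extracellular matrix list had more lower members, 7 and 3. Dropping BF replicate 1 left 3, dropping BF replicate 3 left 4, dropping BG replicate 1 left 3 and dropping BG replicate 2 left 4. Dropping BF replicate 2 gave 35, and dropping BG replicate 3 gave 32. The median stayed below 0 under every alternative, between -0.89 and -0.28. The value of -0.28 came from brighter probe sets only, a filter that kept 8 of the 59 members. Of these 8, 0 were lower at the adjusted p (4 at an unadjusted p under 0.05 in limma).

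The mean level over the 59 genes showed how the arrays lay. It was 5.90, 6.33 and 5.89 on BF replicates 1, 2 and 3, and 6.93, 6.99 and 6.39 on BG replicates 1, 2 and 3. BF replicate 2 and BG replicate 3 thus had nearly the same level, and the other arrays of the 2 groups lay far apart. The FC arrays had 6.17 and 6.23, in the range of the BF arrays and below all BG arrays. Among the 17 members called by the probe set used for the list, BG replicate 3 was the lowest BG array in 16 and BF replicate 2 the highest BF array in 14. In *longissimus dorsi* the genes had a mean level of 5.29, lower than in any tongue array.

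Among regulators of entry into and exit from mitosis, *Ccnb2*, a B-type cyclin that activates the kinase Cdk1, was at 6.18, 6.45 and 5.93 in BF and 8.63, 8.47 and 7.09 in BG. It was 3.67-fold lower in BF (log2 -1.88 ± 0.25 SE, adjusted p = 0.00111), with no overlap. The FC arrays had 6.16 and 5.92. *Ccna2*, the cyclin A gene of dividing cells, was lower by both of its probe sets, at log2 -1.17 and -1.04. *Ube2c* and *Cdc20* encode an ubiquitin-conjugating enzyme and an activator of the anaphase-promoting complex, which ends mitosis by destroying cyclins. *Ube2c* had 5.49, 5.86 and 6.22 in BF against 7.61, 7.45 and 6.52 in BG (log2 -1.33). *Cdc20* had 6.74, 6.24 and 6.67 against 8.24, 8.35 and 7.02 (log2 -1.32), but this was 1 of 3 probe sets, and the other 2 had -0.41 and -0.40 with adjusted p of 0.224 and 0.187.

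Genes of the centromere, kinetochore and spindle moved in the same direction. *Cenpa*, the histone H3 variant that marks centromeres, was at 5.82, 5.70 and 5.63 in BF and 8.19, 7.80 and 6.38 in BG, a 3.34-fold decrease (log2 -1.74 ± 0.28 SE, adjusted p = 0.0073). *Birc5*, which encodes survivin of the chromosomal passenger complex, was at 4.97, 6.10 and 5.08 in BF and 7.38, 7.47 and 6.13 in BG (log2 -1.61). The groups did not overlap, but BF replicate 2 and BG replicate 3 nearly met. *Nusap1*, a spindle protein gene, overlapped, with 6.57, 7.79 and 6.75 in BF and 9.13, 8.77 and 7.64 in BG (log2 -1.48). The kinesin motors *Kif11*, *Kif20a* and *Kif2c* had -1.09, -1.11 and -1.28, and *Kif2c* again was called by 1 of its 4 probe sets only. Its brightest had 0.16, and the others -0.56 and -0.13, none past the adjusted p. For *Kif11* the probe sets not called had -0.85, which passed the adjusted p, and -0.04. The spindle pole gene *Aspm* (-1.20), the kinetochore gene *Nuf2* (-1.14), the cyclin-dependent kinase partner *Cks2* (-1.12) and the kinase *Melk* (-1.18) were called as well. Dim second probe sets of *Nusap1*, *Cep55* and *Top2a*, at levels of 3.05 to 4.09, had differences of 0.07, 0.01 and -0.01.

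The genes of cytokinesis, the final separation of daughter cells, included the largest decrease among named genes. *Ect2*, an activator of the contractile ring, had 4.47, 6.2 and 4.42 in BF, 7.45, 7.43 and 6.38 in BG, and 4.90 and 5.33 in FC. It was 4.17-fold lower in BF (log2 -2.06 ± 0.33 SE, adjusted p = 0.0073), and BF replicate 2 came close to BG replicate 3. *Cep55*, which acts at the last bridge between daughter cells, had log2 -1.51, and *Anln*, a scaffold of the contractile ring, had -1.26. Both overlapped between groups. Among the remaining genes, *Trim59*, which encodes an ubiquitin ligase, had 5.58, 6.05 and 5.41 in BF and 7.41, 7.15 and 6.61 in BG (log2 -1.38 ± 0.18 SE, adjusted p = 0.00111). The proliferation marker *Mki67* had 7.33, 7.80 and 6.92 against 8.45, 8.73 and 8.01 (log2 -1.04), and *Top2a*, which untangles DNA before segregation, had -1.10.

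**Figure D1:**
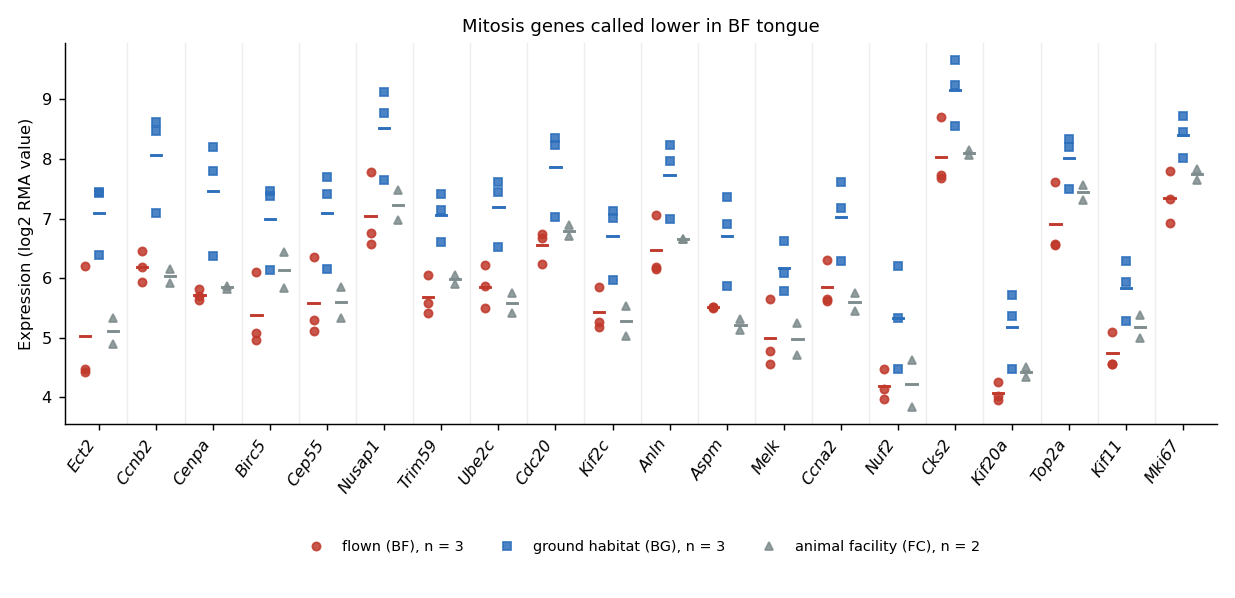
Expression (log2 RMA value, y axis) of the 20 genes of the mitosis list called lower in BF tongue, ordered by the difference, with 1 probe set per gene. Each point is 1 array and each bar a group mean. In *Ect2* and *Birc5* the highest BF array nearly meets the lowest BG array, and the FC arrays of *Ccnb2* (6.16 and 5.92) lie at the level of the BF arrays.

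Not every gene of the cell cycle was lower. In the list of 42 DNA replication genes the median difference was -0.02, and the single member past the adjusted p was *Dbf4*, which activates the kinase Cdc7 at replication origins. By its brighter probe set *Dbf4* had 6.11, 6.08 and 5.55 in BF, 7.36, 7.40 and 6.71 in BG, and 6.27 and 6.54 in FC (log2 -1.24 ± 0.16 SE, adjusted p = 0.00111). *Rfc4*, a clamp loader subunit, had -0.54 with an adjusted p of 0.24, and *Pole*, the catalytic subunit of polymerase epsilon, had 0.41 with 0.26. The sign of this list's median changed when any of BF replicates 1 and 3 or BG replicates 1 and 3 was dropped. The difference between the mitosis and replication lists was not tested.

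Promoters are shown for the 3 mitosis genes with the largest decreases, because promoters of genes of late cell cycle phases are known to carry the cell cycle homology motif, TTTGAA, together with CCAAT boxes. The sequences are RefSeq promoters of build GRCm38.p6, each spanning a gene start, most of it upstream, written on the strand of the gene. Capitals mark TTTGAA and CCAAT on either strand. *Ect2* lies at chr3:27153829-27154128 on the minus strand (the first of 2 promoters listed), *Ccnb2* at chr9:70421505-70421804 on the minus strand and *Cenpa* at chr5:30666636-30666935 on the plus strand.
Ect2: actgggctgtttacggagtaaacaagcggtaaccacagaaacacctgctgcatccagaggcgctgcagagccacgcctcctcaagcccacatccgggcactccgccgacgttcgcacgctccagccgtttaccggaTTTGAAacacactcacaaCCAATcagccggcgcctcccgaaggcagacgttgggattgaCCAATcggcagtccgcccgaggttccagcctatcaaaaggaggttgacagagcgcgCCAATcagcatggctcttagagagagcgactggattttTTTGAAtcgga
Ccnb2: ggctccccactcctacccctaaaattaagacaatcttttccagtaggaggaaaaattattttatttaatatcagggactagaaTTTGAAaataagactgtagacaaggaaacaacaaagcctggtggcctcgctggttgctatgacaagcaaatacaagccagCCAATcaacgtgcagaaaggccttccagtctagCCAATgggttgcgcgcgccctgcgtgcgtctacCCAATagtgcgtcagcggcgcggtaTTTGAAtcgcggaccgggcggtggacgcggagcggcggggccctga
Cenpa: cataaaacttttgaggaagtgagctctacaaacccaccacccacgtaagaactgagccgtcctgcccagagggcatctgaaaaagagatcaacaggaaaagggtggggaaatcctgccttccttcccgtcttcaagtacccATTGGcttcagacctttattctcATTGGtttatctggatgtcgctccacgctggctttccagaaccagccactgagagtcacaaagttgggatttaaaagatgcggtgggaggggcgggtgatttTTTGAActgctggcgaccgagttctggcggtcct
*Ect2* and *Ccnb2* each hold TTTGAA in 2 places and CCAAT in 3, and *Cenpa* holds TTTGAA in 1 place and CCAAT in 2.

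Of the 20 called mitosis genes, 18 had a promoter in the table. TTTGAA was found in 13 of them (72.2%) and in 17.9% of all 32851 promoters of that length (20.2% of 27025 genes). CCAAT was found in 11 (61.1%) and in 37.4% of all promoters (41.1% of genes). A promoter with both was found for 10 (55.6%), and in 6.95% of all promoters (7.97% of genes). The promoters of *Birc5*, *Nusap1*, *Melk* and *Nuf2* held neither. The E2F motifs TTTCGCGC and TTTGGCGC were found in 0 of the 18 and in 0.323% and 0.514% of all promoters. The motifs can share only end bases where they adjoin, apart from the E2F motifs, which can overlap each other. A match of letters is a description of the window, and the genes were chosen from a list of cell division genes that also held *Trim59*.

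Besides the mitosis genes, 12 genes were called lower, *Dbf4* among them. *Krt17*, a keratin of hair follicles and of stressed epithelium, was the most uniform within BF, at 7.55, 7.62 and 7.58, with 8.49, 9.29 and 8.52 in BG and 7.88 and 8.12 in FC. It was 2.27-fold lower (log2 -1.18 ± 0.16 SE, adjusted p = 0.00111), and the groups were well apart. *Kdf1*, which restrains proliferation and promotes differentiation of keratinocytes, had 6.37, 6.59 and 5.66 in BF, 7.08, 8.10 and 6.86 in BG and 7.35 and 7.24 in FC (log2 -1.14). A second *Kdf1* probe set, dimmer in tongue, had -0.15. The tight junction gene *Cldn1* was called by a dim probe set (3.25, 3.72 and 3.57 against 4.12, 5.36 and 4.31), while its brightest had -0.58 with an adjusted p of 0.229. Its further probe sets had 0.41 and -0.07, and neither passed. *Slc5a1*, the sodium-glucose cotransporter, had 5.14, 6.07 and 5.81 against 6.52, 7.43 and 6.43 (log2 -1.12), and its brighter probe set -0.33 with an adjusted p of 0.274.

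*Postn*, periostin of the extracellular matrix, was the only called gene of its list that was lower. It had 7.76, 7.97 and 7.66 in BF, 9.12, 9.18 and 9.27 in BG and 9.01 and 9.25 in FC. The BF arrays lay below every other tongue array by a wide margin. The difference was 2.63-fold (log2 -1.39 ± 0.32 SE, adjusted p = 0.041), and with the 8 tongue arrays alone the adjusted p was 0.00497. It did not pass without moderation (0.0856), with a trend and robust moderation (0.0516), or without BF replicate 1 (0.167), BF replicate 3 (0.186), BG replicate 1 (0.136), BG replicate 2 (0.134), BG replicate 3 (0.0557) or either FC array (0.0515). *Ackr3*, a scavenging receptor for the chemokine Cxcl12, had 8.53, 9.48 and 8.53 against 9.86, 10.27 and 9.70 (log2 -1.10). *Il13ra1*, a receptor chain for interleukin 13, had 7.29, 7.62 and 7.16 against 8.51, 8.77 and 8.11 (log2 -1.11). Of its 4 other probe sets 1 passed at -0.65, and the rest had -0.09, -0.17 and -0.12. *Ms4a4d*, of a family of membrane proteins of immune cells, had 7.29, 7.45 and 7.06 against 8.56, 8.30 and 8.07 (log2 -1.04).

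The last of these genes act in RNA and protein handling. *Tent2*, a polymerase that lengthens the poly(A) tails of messenger RNA, had 4.77, 5.39 and 4.66 in BF and 6.23, 6.16 and 5.81 in BG (log2 -1.13), but its brighter probe set had 0.01. *Ran*, a GTPase of nuclear transport and of spindle assembly, was called by 2 of its 6 probe sets (-1.01 and -1.0) and passed the adjusted p by another (-0.50). *Rpl13a*, of the large ribosomal subunit, was called by 1 of 4 probe sets at -1.17, and its brightest had -0.23 with an adjusted p of 0.28. Ribosomal protein genes and *Ran* have many near-identical copies in the genome, so the source of the signal of these probe sets is uncertain.

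**Figure D2:**
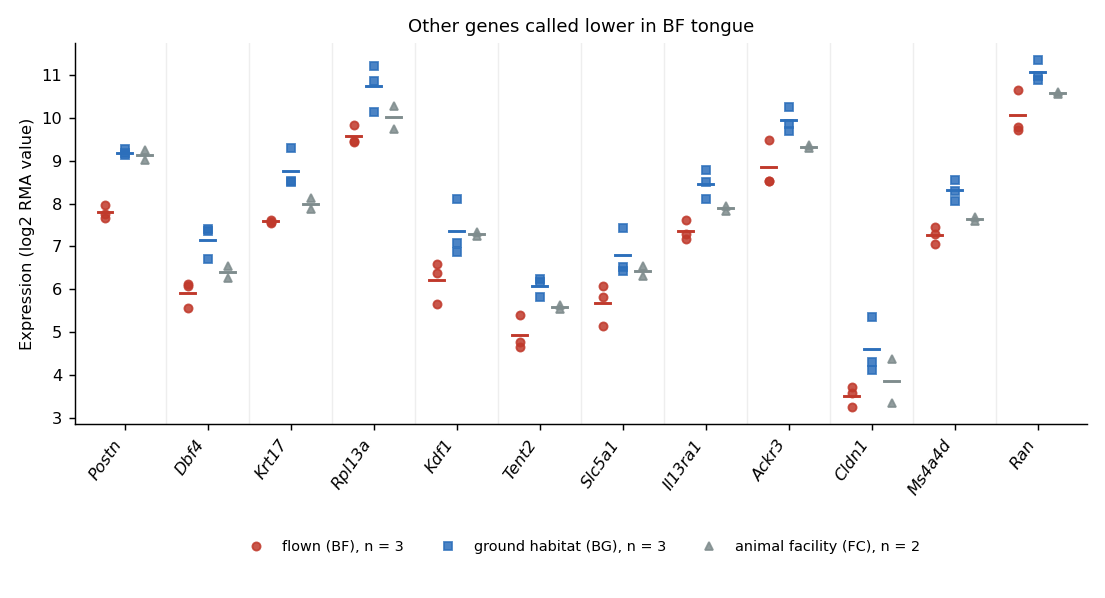
Expression (log2 RMA value, y axis) of the 12 other genes called lower in BF tongue, with 1 probe set per gene. Each point is 1 array and each bar a group mean. The FC arrays of *Postn* (9.01 and 9.25) and *Kdf1* (7.35 and 7.24) lie close to or within the range of the BG arrays, above all BF arrays.

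The 9 genes called higher in BF were led by *Nfic*, a transcription factor of the nuclear factor I family with known roles in tooth, muscle and epithelium. Its 4 probe sets were all called, at log2 1.84, 1.54, 1.26 and 1.01. The first had 5.74, 5.92 and 5.76 in BF, 3.61, 4.40 and 3.88 in BG and 4.36 and 4.40 in FC (3.59-fold, adjusted p = 0.0073). In the brightest, BF had 10.72, 10.23 and 10.48, BG 9.19, 9.60 and 9.62, and FC 10.83 and 10.60. The position of the FC arrays thus differed between probe sets of the same gene, near BG in the first and near BF in the brightest. *Zbtb7a*, a transcriptional repressor, had 7.81, 7.35 and 7.95 against 6.38, 6.68 and 6.75 (log2 1.10, FC 8.07 and 7.43).

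*Pnmt* encodes the enzyme that makes adrenaline from noradrenaline, and its synthesis is known to be raised by glucocorticoids. Its called probe set had 6.82, 6.64 and 6.99 in BF, 5.37, 5.72 and 5.41 in BG and 5.57 and 5.44 in FC (2.50-fold, log2 1.32 ± 0.28 SE, adjusted p = 0.026). The other 2 probe sets of *Pnmt* had -0.18 and 0.12. *Fkbp5*, the co-chaperone by which glucocorticoids restrain their own receptor, had 10.63, 9.92 and 10.33 in BF, 9.32, 8.73 and 9.51 in BG and 8.99 and 9.31 in FC (2.15-fold, log2 1.11 ± 0.23 SE, adjusted p = 0.021). BF arrays lay above BG and FC arrays in both genes. The second *Fkbp5* probe set had 1.01 with an adjusted p of 0.071.

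The other genes called higher act at membranes, in the cytoskeleton and in muscle. *Synj2*, a phosphatase of membrane phosphoinositides, had 7.36, 7.43 and 7.67 in BF, 6.06, 6.31 and 6.36 in BG and 6.24 and 6.45 in FC (log2 1.24), by 1 of 6 probe sets. The remaining 5 ranged from -0.06 to 0.28, and none passed. *Tns1*, tensin of focal adhesions, had 8.34, 8.0 and 8.09 against 7.06, 7.14 and 7.09 (log2 1.04), and its other probe set passed at 0.97. *Spock2*, a matrix proteoglycan gene, had 7.21, 6.77 and 7.32 against 6.08, 5.35 and 6.26 (log2 1.20), while its dimmer probe set had 0.05 and did not pass. *Pde4dip*, which anchors signalling enzymes at the Golgi and the sarcomere, had log2 1.12, while its brighter probe set had 0.58 with an adjusted p of 0.0937. *Mylk2*, the myosin light chain kinase of skeletal muscle, had 8.97, 8.20 and 8.15 against 7.64, 6.94 and 7.73 (log2 1.0). The 2 further probe sets called higher name several genes each and are not named here.

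**Figure D3:**
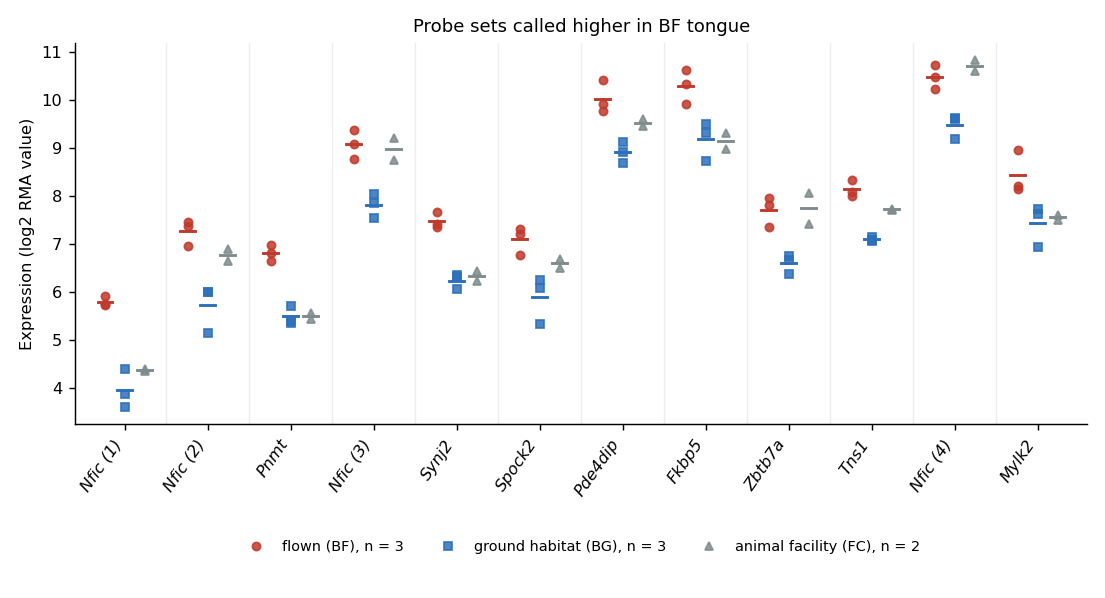
Expression (log2 RMA value, y axis) of the 12 single-gene probe sets called higher in BF tongue, ordered by the difference. Each point is 1 array and each bar a group mean, and the numbers after *Nfic* count its probe sets in that order. BF and BG arrays do not overlap in any of the 12, while FC arrays lie near BG in *Pnmt*, *Synj2* and *Fkbp5* and near BF in the third and the fourth *Nfic* probe set and in *Zbtb7a*.

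In the basal layer of the epithelium, where the dividing cells lie, the list of 16 genes had a median of 0.02, with *Krt17* lower and *Itgb4*, the integrin that anchors basal cells, higher at 0.74 (adjusted p = 0.044). *Krt14*, the keratin that defines this layer, had -0.28 with an adjusted p of 0.29. The mean level of the list was 9.66, 9.41 and 9.77 in BF and 9.69, 9.60 and 9.63 in BG, so the groups overlapped. Differentiated epithelium had 0 of 26 genes past the adjusted p in limma (5 lower and 0 higher at an unadjusted p under 0.05) and a median of -0.14. *Krt16* was closest, at -0.57 with an adjusted p of 0.062. Among 22 junction genes *Ocln*, a tight junction protein gene, was lower (-0.65, adjusted p = 0.045), and among 20 hair-type genes *Krtap3-1* was higher (0.81, adjusted p = 0.015). The taste cell list of 16 had *Sox2*, a factor of taste progenitors and basal cells, lower (-0.61, adjusted p = 0.044). With the 8 tongue arrays alone *Itgb4*, *Ocln*, *Krtap3-1* and *Sox2* did not pass, nor when any of BF replicates 1 and 3 or BG replicates 1 and 2 was dropped. *Itgb4*, *Ocln* and *Sox2* were also lost without moderation and when either FC array was dropped.

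Signals that govern growth of keratinocytes (39 genes) had a median of 0.12, and *Igf1r*, the receptor of insulin-like growth factor 1, was higher, with 7.15, 6.87 and 7.21 in BF against 6.36, 6.28 and 6.49 in BG (log2 0.70, adjusted p = 0.014). It did not pass with the 8 tongue arrays alone, with brighter probe sets only, or when any of BF replicates 1 and 3 or BG replicates 1 and 2 was dropped.

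In muscle genes, *Ryr1*, the calcium release channel of the sarcoplasmic reticulum, was higher in BF, with 12.39, 12.04 and 12 against 11.47, 11.20 and 11.49 (log2 0.75, adjusted p = 0.0099). FC arrays had 12.48 and 12.36. It was the single member past the adjusted p among 33 fibre genes, whose median was 0.23 and of which 29 lay above 0. The median was 0.05 without BF replicate 1 and 0.13 without BG replicate 2, and 0 members passed in either case or with the 8 tongue arrays alone. Its partner in excitation-contraction coupling, the calcium channel gene *Cacna1s*, had 0.51 (adjusted p = 0.057), and *Atp2a1*, the calcium pump of fast fibres, had 0.36 (0.0597). The 14 slow fibre genes had a median of -0.56, and 0 passed (0 at an unadjusted p under 0.05 in limma). This median was -0.23 without BF replicate 3 and -0.26 without BG replicate 3. The list differed between arrays of a group, with mean levels of 8.51, 8.81 and 7.83 in BF, 9.01, 8.11 and 9.53 in BG and 8.17 and 7.93 in FC.

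Genes of muscle atrophy and of glucocorticoid action were set beside *longissimus dorsi*. The paper treats that muscle as unloaded in flight and the tongue as constantly active, but load was not measured in either. Of 30 glucocorticoid-responsive genes, *Fkbp5* alone passed the adjusted p, and the median was 0.00 in tongue and 0.63 in *longissimus dorsi*. *Lcn2*, an iron-binding acute phase protein gene, had 7.26, 7.04 and 7.04 in BF and 6.19, 5.90 and 6.04 in BG without overlap, but an adjusted p of 0.26 (log2 1.07). That limma test shared its error with the back muscle arrays, so it does not measure the spread among tongue arrays alone. Of 29 atrophy and FoxO target genes 0 passed in tongue (5 higher and 1 lower at an unadjusted p under 0.05 in limma), with a median of 0.07 against 0.40 in *longissimus dorsi*. The smallest adjusted p was that of *Fbxo31*, an F-box protein gene, at 0.63 (adjusted p = 0.071). The difference of these lists between muscles was not tested.

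In the extracellular matrix list of 52 genes, *Postn* was lower and *Spock2* higher, and the median was -0.16. The number of lower members was 7 with the 8 tongue arrays alone, 3 with the 6 BF and BG arrays alone and 5 with the replicate block, and 0 without moderation, with a trend and robust moderation, or without BF replicate 1 or 3, any BG array or either FC array. In 19 members every BF array lay below every BG array (9.8% of all genes), and in 5 every BF array lay above (8.92%). *Vcan*, a large proteoglycan gene, had 5.58, 5.43 and 5.45 against 6.49, 6.48 and 6.37 (log2 -0.96, adjusted p = 0.092), and *Fstl1*, a secreted glycoprotein gene, had 8.90, 9.18 and 8.42 against 9.97, 10.13 and 9.88 (log2 -1.16, adjusted p = 0.096). Neither passed in the fit that shared its error with the back muscle arrays, although their groups did not overlap. The mean level of the list was 7.80 to 8.10 in BF, 8.14 to 8.20 in BG and 8.49 to 8.52 in FC.

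The lists of immune genes held no member past the adjusted p. The 26 macrophage genes had a median of -0.23 and 0 past the adjusted p in limma (1 higher at an unadjusted p under 0.05), with 10 members lower in every BF array than in every BG array (9.8% of all genes) and 1 higher in every BF array (8.92%). The 23 interferon-responsive genes had a median of 0.40, 22 of them above 0, and 0 passed (3 higher at an unadjusted p under 0.05). That median rested on a single array. The mean level of the list was 8.09 on BF replicate 3 and 6.40 to 6.82 on the other tongue arrays, and without BF replicate 3 the median was -0.08. *Oasl2*, an oligoadenylate synthetase-like gene, had 5.28, 4.93 and 8.34 in BF against 4.62, 5.79 and 4.70 in BG. The 15 antigen presentation genes had 0 past the adjusted p (1 higher at an unadjusted p under 0.05) and a median of 0.32, which was -0.04 without that array.

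**Figure D4:**
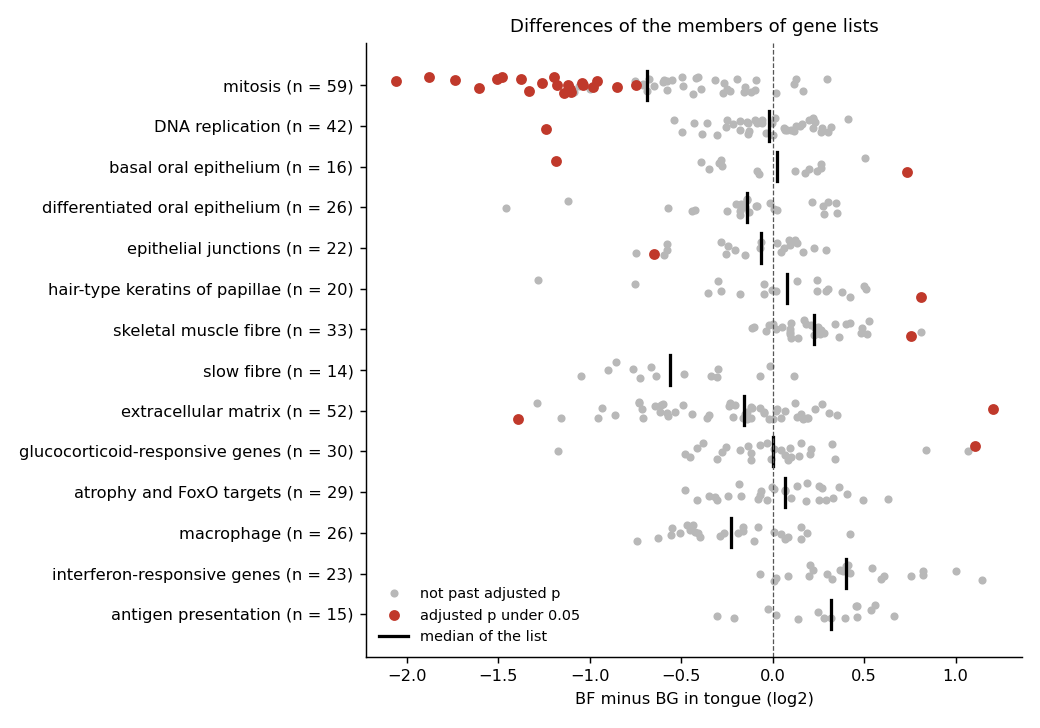
Difference between BF and BG tongue (log2, x axis) of each member of 14 gene lists (rows), 1 probe set per gene. Red points passed the adjusted p, grey points did not, and black bars are list medians. The red points gather in the mitosis list (21 of 59), while lists such as interferon-responsive genes (median 0.40) hold no red point.

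The paper studied the tongue beside the back muscle as a control that it took to stay active in flight. Of 12 single-gene probe sets called higher in tongue, 11 were also higher at the adjusted p in *longissimus dorsi* (5 BF and 5 BG arrays), where 6.41% of all probe sets were higher, and these 11 covered all 9 genes. The differences of the 12 in that muscle ranged from 0.39 to 2.19, the last in *Pnmt*. Of 34 single-gene probe sets called lower in tongue, 3 were lower in *longissimus dorsi*, where 3.83% of all probe sets were. These were *Postn* (-0.78), *Ackr3* (-0.74) and *Ms4a4d* (-0.62). Both muscles shared 1 error per probe set in the fit, so the tests in the back muscle are not independent of the tongue calls. The mitosis genes had a median difference of -0.12 there, from a median level of 4.92 in BG mice, compared with 6.91 for all genes. The sources used here do not say if the 2 muscles were taken from 1 set of mice.

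A direct test of whether the BF vs. BG difference was unequal between the muscles passed in 39 probe sets (0.172%), of which 36 were more negative in tongue. Among called single-gene probe sets it passed for *Ccnb2* (difference of differences -1.69 ± 0.32 SE, adjusted p = 0.036), *Dbf4* (-1.32, adjusted p = 0.020), *Tent2* (-1.26, adjusted p = 0.045) and *Krt17* (-1.10, adjusted p = 0.029). *Krt17* was at 2.99 in BF and 3.07 in BG *longissimus dorsi*, near the lowest values of the arrays, so a decrease could hardly have been measured there. *Ccnb2* had 4.40 and 4.59, *Dbf4* 4.67 and 4.59, and *Tent2* 5.6 and 5.47 in that muscle. For the other 42 the test did not pass, which does not show that the muscles responded alike. The count was 129 with the replicate block. Dropping BG tongue replicate 1 left 0 (1976 at an unadjusted p under 0.05 in limma), and dropping BF tongue replicate 3 left 2. Dropping BG tongue replicate 3 gave 151, and dropping BF tongue replicate 2 gave 125. With BF tongue replicate 1 or either FC tongue array dropped it was 16, and with BG tongue replicate 2 dropped it was 17. Leaving out arrays of *longissimus dorsi* gave 3 to 375, the lowest without BG replicate 3 and the highest without BG replicate 5. It also gave 7 and 6 without BF replicates 3 and 4, and 16 and 13 without BG replicates 1 and 2.

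**Figure D5:**
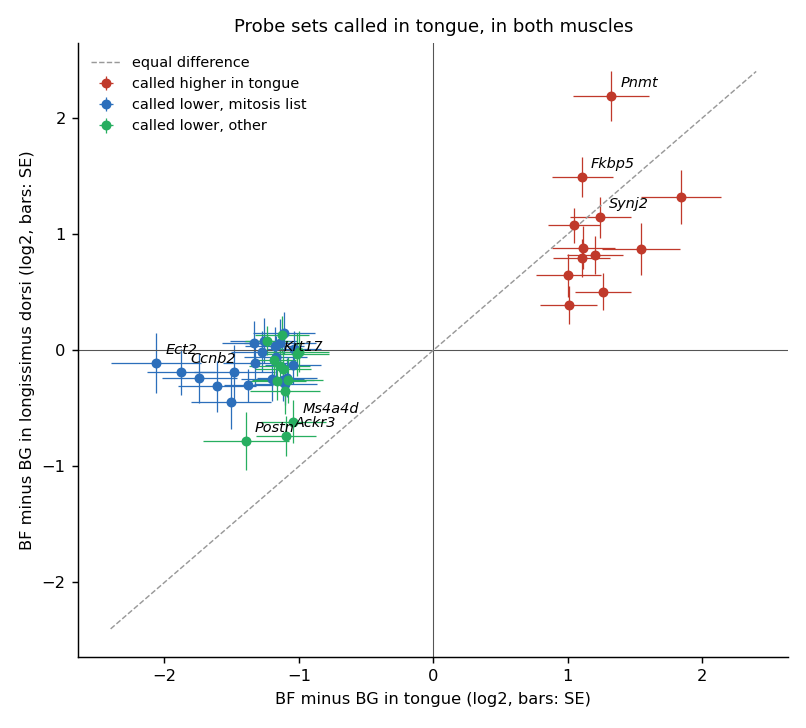
Difference between BF and BG in tongue (x axis, log2) and in *longissimus dorsi* (y axis, log2) for the 46 single-gene probe sets called in tongue, with SE bars. The dashed line marks equal differences. Probe sets called higher lie between 0.39 and 2.19 on the y axis, and those called lower between -0.78 and 0.15.

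The FC tongues were set beside both groups, in comparisons that share the BG or the BF arrays and are therefore not independent. The mitosis list had a median of -0.44 in FC minus BG and of -0.10 in BF minus FC. For *Ccnb2* these differences were -2.02 and 0.14, and for *Ect2* -1.97 and -0.09. *Postn* went the other way, with -0.06 in FC minus BG and -1.34 in BF minus FC, as did *Kdf1*, with -0.06 and -1.08. Of the genes called higher, *Pnmt* had 0.00 and 1.32, *Fkbp5* -0.04 and 1.14, and *Synj2* 0.10 and 1.14. *Zbtb7a*, by contrast, had 1.15 and -0.05. The matrix list had a median of 0.37 in FC minus BG and of -0.61 in BF minus FC.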

How the data were processed

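RNA of tongue and *longissimus dorsi* was hybridised by the authors to 23 Affymetrix arrays, and the deposited log2 values were made by them with RMA in Partek, per the submitters' notes. RMA sets all arrays to a common distribution, so a change in total RNA is not seen. Groups and replicate numbers came from the sample titles. Nothing states which arrays share an extraction or a day, and p-values measure the spread between these samples only. The number of arrays limits the precision.

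All 22626 probe sets (no control probe sets) were fitted with limma 3.58.1 in R 4.3.3 (lmFit and eBayes, 6 groups, 17 residual degrees of freedom), and p-values were Benjamini-Hochberg adjusted over all of them. Called means an adjusted p under 0.05 and over 2-fold, the thresholds of the methods. The paper applied an ANOVA at these thresholds and reported fewer genes in tongue than are given here. Of the probe sets, 20380 name 1 gene, 691 several and 1555 none, by the platform annotation. The named genes were every called gene, the 10 largest changes in each direction among probe sets past the adjusted p without overlap, up to 4 members per list by adjusted p, and genes tabulated for tongue in the paper. Lists used the brightest probe set of each of 12393 genes, were not tested as sets, and, like the comparison, were chosen with earlier results of these data known.

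Tested on simulated data with 22626 probe sets in the tongue comparison, 90% of those changed by 1 (log2) and 97% of those changed by 2 passed. Of the probe sets that passed, 5.56% were unchanged. The simulated noise was independent, with 1 spread per probe set for all groups. These shares therefore do not cover probe sets that vary more in tongue than in *longissimus dorsi*, as those called lower did. Replicate numbers were checked for pairing. Same-numbered BF and BG tongue arrays deviated together (correlations 0.167, 0.383 and 0.203), so the replicate number was tried as a block. The labels name no shared litter or batch, and BF replicate 1 correlated more with BG replicate 3 (0.226). The pairing was read from the same values that the block was then fitted to, so the block does not establish that the arrays are paired. Alternatives were the tongue arrays alone, other moderation, filtering, normalization, array weights, the replicate block and leaving out each array.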

Additional observations from a re-analysis of the deposited data

Results flagged for a closer look

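In 4 of the called genes, by 1 probe set each, the BF vs. BG difference was unequal between tongue and *longissimus dorsi*. This was by a test of the difference itself in limma, adjusted over all probe sets. The difference in tongue minus that in *longissimus dorsi* was -1.69 for *Ccnb2*, -1.32 for *Dbf4*, -1.26 for *Tent2* and -1.1 for *Krt17*. Tongue had the lower value in BF in each, and *longissimus dorsi* had -0.19, 0.08, 0.13 and -0.09. *Krt17* lay near the lowest values of the arrays in *longissimus dorsi* (2.99 in BF and 3.07 in BG), where a decrease could hardly have been measured. Levels of *Ccnb2* and *Dbf4* were also lower in that muscle than in tongue, and the part of this in the result was not tested. By their other probe sets the same test gave -0.20 for *Tent2* (the brighter, adjusted p = 0.648), 0.21 for *Dbf4* (0.741) and -0.18 for *Krt17* (0.719). Without BG tongue replicate 1 the test passed in 0 probe sets (1976 at an unadjusted p under 0.05 in limma).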

How the results depend on the processing

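Among the 46 called probe sets that name a single gene, 751 values were recomputed, of which 491 were past the adjusted p, 260 were not and 0 had reversed. *Trim59*, *Dbf4*, *Ccnb2* and *Krt17* were lost only with the 6 BF and BG arrays alone. For probe sets called higher, called lower and past the adjusted p (14, 36 and 187), the counts were 7, 5 and 14 with those 6 arrays, 9, 18 and 109 without moderation, 5, 22 and 103 with 1 probe set per gene, and 34, 102 and 1839 with array weights. With the 8 tongue arrays alone 17 were called lower and 65 passed, and with brighter probe sets only 6 were called lower and 103 passed. Leaving out each tongue array gave 3 to 47 called higher, 5 to 131 called lower and 10 to 1067 past the adjusted p. The count of 39 for the muscle difference was 14 without moderation, 11 with 1 probe set per gene, 23 with quantile normalization, 24 with median centring and 1051 with array weights, and 0 to 375 when each array was left out. With the replicate block, which pairs same-numbered arrays, 532 passed and the muscle difference passed in 129, 71 probe sets were called (19 higher and 52 lower), 29 mitosis genes and 5 matrix genes were lower, and all 46 called probe sets that name a single gene still passed. The cause of these changes was not tested, except that fewer samples or probe sets entered some fits.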

Other observations

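Other gene lists held few changed genes in BF tongue. Of 42 cytosolic ribosomal protein genes *Rpl14* was lower (-0.62) and 34 lay below 0, with a median of -0.12. Of 13 smooth muscle and pericyte genes *Abcc9*, a subunit of a potassium channel, was higher (0.65). The 9 genes of nuclear factor I, tensin and synaptojanin, a list made because of earlier results, had 3 higher. Lists with 0 past the adjusted p in limma included endothelium (median 0.21, 6 of 22 higher at an unadjusted p under 0.05), splicing proteins (median -0.18, 7 of 30 lower and 1 higher), the circadian clock (median 0.21, 5 of 19 higher and 2 lower), heat shock proteins (median -0.06, 4 of 21 lower) and glycolysis (median -0.02, 6 of 24 higher and 3 lower). Oxidative phosphorylation (47 genes, median -0.07) and fatty acid oxidation (24 genes, median -0.12) had 1 and 0 members at an unadjusted p under 0.05.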
